A study of Mus musculus with 19 samples.

Results

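The expression of 10 amino acid transporter genes was examined in RNA-seq of mouse mammary glands and mammary tumors. The genes were *Slc6a14*, *Slc7a5*, *Slc3a2*, *Slc7a8*, *Slc7a11*, *Slc43a1*, *Slc1a5*, *Slc1a4*, *Slc38a1* and *Slc38a2*, and they are 10 of the 46078 genes in the deposited table. Each was found by matching its Ensembl identifier to its symbol. *Slc6a14*, which heads the set, was chosen by its counts in these data, which were known to be far higher in tumors than in glands, and the other 9 were named with it as carriers of amino acids. The differences between tumors and glands of tumor-bearing mice are therefore given as a description with no test for all 10 genes, and for *Slc6a14* the same holds for its differences from wild-type glands.

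The study asked what mutant p53 in fibroblasts does to mammary glands and tumors of mice with an Erbb2 transgene. It had 19 RNA-seq samples in 5 groups. MGWT were 3 mammary glands of Wild Type mice matched for age. MGN (n = 4) and MGNP (n = 4) were glands without malignant lesions, taken from females that carried tumors. TN (n = 4) and TNP (n = 4) were the tumors. All samples other than MGWT carried MMTV-neu, a transgene that places Erbb2 under a viral promoter active in mammary epithelium. NP samples carried MMTV-neu, Fsp-Cre and p53wm-R172H/+, a conditional *Trp53* allele that makes wild-type p53 until Cre converts it to the R172H mutant. Fsp-Cre drives Cre from a promoter used for fibroblasts. The 4 TN tumors and MGN replicate 1 carried MMTV-neu and Fsp-Cre, whereas MGN replicates 2, 3 and 4 carried MMTV-neu and p53wm-R172H/+ without Cre. The mice of the N and NP cohorts were of mixed FVB, C57 and BALB/c background. The exact age of each animal was not given. TNP replicates 1 and 2 have related library names, and whether they came from the same mouse was not stated. The study calls its samples biological replicates, and p-values measure the spread between them.

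The libraries held 54677315 to 62645459 reads on genes in MGWT and 20899152 to 27262440 in the other groups, so the depth and the wild-type group cannot be told apart. The deposited values are normalized counts, which are reads divided by a size factor for each library. The tissue labels were checked with marker lists, as the summed percent of all normalized counts in each library. The 10 luminal epithelium markers took 0.322% to 0.368% in MGWT, 0.0530% to 0.114% in MGN, 0.0264% to 0.117% in MGNP, 0.357% to 0.689% in TN and 0.403% to 0.509% in TNP. The 9 white adipocyte markers, which include the adipokine genes *Adipoq* and *Lep*, took 1.40% to 1.83% in MGN and 0.602% to 1.33% in MGNP, but at most 0.0143% in MGWT, 0.0344% in TN and 0.00911% in TNP. The wild-type glands thus had little adipocyte RNA for a tissue that normally contains a fat pad. The 12 skeletal muscle markers took 0.0474% to 7.83% in MGNP and no more than 0.105% in any library of the other groups. *Erbb2* ranged over the tumors from 73426 to 155042 normalized counts, and over the glands from 1845 to 14718.

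Amino acids cross the plasma membrane on carriers that differ in substrate and in coupling. Slc6a14 (ATB0,+) imports neutral and cationic amino acids together with sodium and chloride. Slc7a5 (LAT1), Slc7a8 (LAT2) and Slc7a11 (xCT) are light chains that reach the membrane bound to the heavy chain Slc3a2 (CD98hc). LAT1 and LAT2 exchange large neutral amino acids such as leucine, and xCT exchanges cystine for glutamate. Slc43a1 (LAT3) carries branched-chain amino acids without a heavy chain. Slc1a5 (ASCT2) and Slc1a4 (ASCT1) exchange small neutral amino acids, ASCT2 with glutamine among them, and Slc38a1 (SNAT1) and Slc38a2 (SNAT2) import glutamine and alanine with sodium. When amino acids are scarce, the transcription factor ATF4 binds amino acid response elements and induces several of these genes. Carriers of this kind supply the lactating gland with amino acids for milk protein, and several are often abundant in tumors.

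Promoter windows were available for 7 of the members, as the 250 bases before and the 50 bases after a transcription start (RefSeq, GRCm38.p6). Those of *Slc6a14*, the gene with the widest range between groups here, and of *Slc7a11* and *Slc1a4*, the members that hold a match to the ATF4 element, are shown 5′ to 3′ on the strand of the gene, with matches in capitals. The windows lie at chrX:21714650-21714949 on the plus strand (*Slc6a14*), chr3:50443564-50443863 on the minus strand (*Slc7a11*) and chr11:20332664-20332963 on the minus strand (*Slc1a4*).
Slc6a14: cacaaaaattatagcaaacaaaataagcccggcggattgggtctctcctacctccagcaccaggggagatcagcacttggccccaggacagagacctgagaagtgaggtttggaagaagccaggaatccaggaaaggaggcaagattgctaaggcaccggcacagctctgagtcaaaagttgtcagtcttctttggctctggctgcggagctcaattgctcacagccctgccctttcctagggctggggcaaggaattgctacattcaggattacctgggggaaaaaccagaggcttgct
Slc7a11: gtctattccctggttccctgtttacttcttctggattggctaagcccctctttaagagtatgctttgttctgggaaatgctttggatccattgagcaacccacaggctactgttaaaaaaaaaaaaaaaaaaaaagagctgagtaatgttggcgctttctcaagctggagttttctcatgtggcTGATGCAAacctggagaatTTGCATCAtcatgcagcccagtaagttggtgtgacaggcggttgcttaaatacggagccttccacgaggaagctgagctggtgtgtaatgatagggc
Slc1a4: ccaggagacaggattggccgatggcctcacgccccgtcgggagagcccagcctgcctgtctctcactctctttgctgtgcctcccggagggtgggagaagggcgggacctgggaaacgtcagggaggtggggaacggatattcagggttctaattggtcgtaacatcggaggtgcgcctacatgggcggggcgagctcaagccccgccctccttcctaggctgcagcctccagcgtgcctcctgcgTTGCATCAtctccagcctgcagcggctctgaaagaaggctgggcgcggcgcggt
The element searched was TGATGNAA on both strands, which 3.97% of 32851 windows of the same length held. The *Slc7a11* window had a match on each strand, 11 bases apart, and the *Slc1a4* window had a match that runs across the start. The E-box CACGTG (7.15% of windows) occurred in the *Slc43a1* window, and the antioxidant response letters TGACNNNGC (12.4%) in those of *Slc38a2* and *Slc43a1*, with no overlap between matches. An absent match says only that these letters are not in the window, and a match is not evidence of binding.

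*Slc6a14* (chrX:21714896-21742355) had 1332, 1882, 1489 and 1536 normalized counts in the 4 TN tumors. In the TNP tumors the values were 1483, 1441, 703 and 1122. Every tumor was above every gland. The 3 MGWT glands had 14.1, 4.88 and 20.2 normalized counts. The 4 MGN glands had 189, 2.30, 31.9 and 0, and the 4 MGNP glands had 5.72, 12.9, 46.6 and 0. The glands were thus low and uneven, with MGN replicate 1 far above the rest. That gland carried Fsp-Cre without the conditional allele, as the TN tumors did, whereas the other MGN glands carried the allele without Cre. Its genotype and its other traits cannot be told apart. A count of 0 allows up to 3 reads, or 3.09 normalized counts in MGN replicate 4 and 3.87 in MGNP replicate 4, by counting error only.

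The ratio of mean *Slc6a14* counts was 28.0 between TN and MGN and 72.9 between TNP and MGNP. On the log2(normalized count + 1) scale the differences were 7.01 (SE 1.41) and 7.13 (SE 1.006). Both depend on how the glands are averaged. EdgeR on the recovered reads gave 4.83 and 6.15, and leaving out each library in turn gave 5.82 to 8.34 and 6.12 (without MGNP replicate 4) to 7.975 (without MGNP replicate 3). Against MGWT the differences were 6.97 (SE 0.42) for TN and 6.53 (SE 0.45) for TNP, and −0.04 (SE 1.63) for MGN and −0.60 (SE 1.22) for MGNP. The direction of the gland differences was not stable, since edgeR gave 2.06 for MGN and 0.35 for MGNP, and omitting single libraries gave −1.37 (without MGN replicate 1) to 1.15 (without MGN replicate 4) and −1.44 (without MGNP replicate 3) to 0.41 (without MGNP replicate 4). In bulk samples, fewer cells of a type and less RNA per cell cannot be told apart. MGN replicate 1 had 14718 normalized counts of *Erbb2*, against 1845, 9610 and 2046 in replicates 2 to 4, and its 8 milk protein genes took 0.697% of counts, against 0.0103%, 0.0498% and 0.0295%. MGNP replicate 3, the MGNP gland with most *Slc6a14*, had 0.450% from milk protein genes, against 0.239%, 0.0850% and 0.0142% in replicates 1, 2 and 4, and 3985 normalized counts of *Erbb2*, against 9969, 10787 and 3966. The luminal epithelium markers took 0.0908% in MGN replicate 1, against 0.0530%, 0.114% and 0.0633% in replicates 2 to 4. In MGNP replicate 3 they took 0.117%, against 0.0979%, 0.0810% and 0.0264% in replicates 1, 2 and 4. In TN replicates 1 to 4 the milk protein genes took 2.36%, 0.303%, 2.74% and 0.462%, and *Slc6a14* was highest in replicate 2. In TNP they took 1.93%, 1.46%, 1.45% and 1.22%, and *Slc6a14* was highest in replicate 1. The part of epithelial content in these *Slc6a14* values was not tested.

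Mutant p53 in fibroblasts was not accompanied by a detected change of *Slc6a14*. TNP tumors differed from TN by −0.44 on the log2 scale (SE 0.24, 95% interval −0.99 to 0.11, limma with Benjamini-Hochberg adjusted p = 0.724), with overlapping groups. MGNP and MGN glands differed by −0.55 (SE 1.75, 95% interval −4.57 to 3.46, adjusted p = 0.958), an interval that leaves a large difference in either direction possible. The test of whether the tumor-gland difference itself differed between NP and N gave 0.11 (SE 1.86, adjusted p = 0.997).

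**Figure D1:**
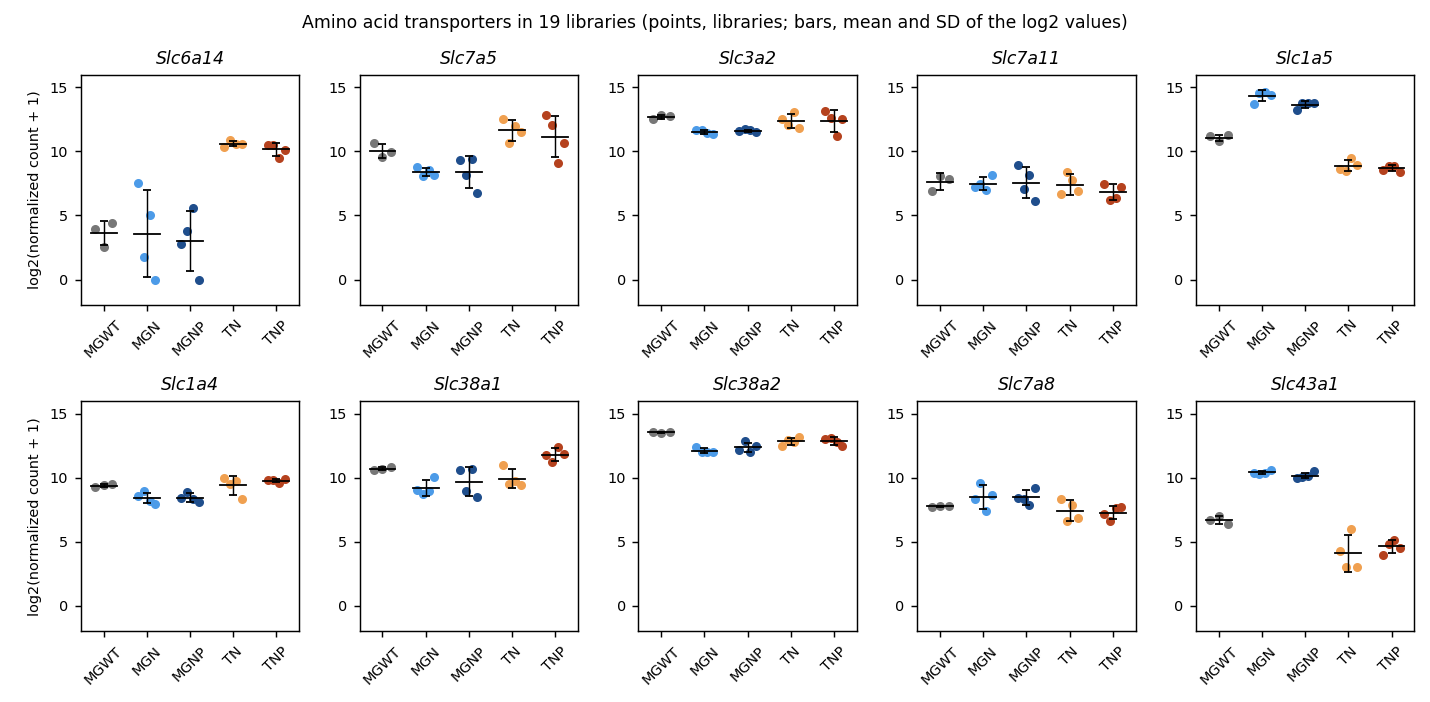
Log2(normalized count + 1) of the 10 transporters (vertical axes) in the 5 groups (horizontal axes), with 1 point per library and bars for the mean and SD of the log2 values. All 8 tumors lie above all 11 glands for *Slc6a14* and below all 11 for *Slc1a5* and *Slc43a1*.

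The light and heavy chains of the exchangers were followed next. *Slc7a5* (chr8:121881150-121907694) had 1595, 755 and 982 normalized counts in MGWT. It had 442, 270.1, 369 and 278 in MGN and 636, 293, 694 and 107 in MGNP, so that every gland of a tumor-bearing mouse was below every wild-type gland. In tumors it was higher and spread more widely, at 5901, 1576, 4033 and 2849 in TN and 7381, 4167, 559.8 and 1593 in TNP. TNP replicate 3 fell inside the range of the MGNP glands, and the other 7 tumors were above all MGN and MGNP glands. The difference from MGWT was −1.67 in MGN (SE 0.28, limma adjusted p = 0.00125) and passed the test. In MGNP it was −1.62 (SE 0.65, adjusted p = 0.0763) and did not pass, but passed with DESeq2, with the replicate number as a block and without MGNP replicate 3, and the adjusted p over all alternatives ranged from 0.0327 to 0.222.

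*Slc3a2* (chr19:8706882-8723369), which encodes the heavy chain, had 5768, 7218 and 7052 normalized counts in MGWT. It had 3277, 3199, 2748 and 2608 in MGN and 3035, 3359, 3217 and 2978 in MGNP. All 8 glands of tumor-bearing mice were below the wild-type glands, with log2 differences of −1.17 (SE 0.13, limma adjusted p = 1.6e-04) and −1.08 (SE 0.13, adjusted p = 7.72e-04), and both falls passed the test. The tumors had 6035, 4318, 8513 and 3675 in TN and 9343, 6326, 2326 and 6041 in TNP. They spanned the wild-type range, and the TNP replicate that was lowest for *Slc7a5* was also lowest for *Slc3a2*. Per kb of exon, *Slc7a5* was 34.7% to 93.1% of *Slc3a2* in TN and 22.9% to 75.2% in TNP, against 9.95% to 26.3% in MGWT, 8.04% to 12.8% in MGN and 3.43% to 20.5% in MGNP.

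*Slc7a8* (chr14:54722209-54781946) had 212, 215 and 223 normalized counts in MGWT, 321, 772, 164 and 394 in MGN, and 342, 325, 231 and 599 in MGNP. The MGNP glands were all above the wild-type glands, whereas the MGN glands lay on both sides. Neither difference passed the test, at 0.72 (SE 0.44, limma adjusted p = 0.194) in MGN and 0.70 (SE 0.31, adjusted p = 0.100) in MGNP. The tumors had 325, 96.9, 237 and 116 in TN and 139, 98.8, 197 and 204 in TNP. All TNP tumors were below all MGNP glands, with a log2 difference of −1.20 (SE 0.34). *Slc7a11* (chr3:49892526-50443614), whose promoter window held an ATF4 match on each strand, was not called in any comparison. Its libraries ranged from 116 to 274 in MGWT, 129 to 292 in MGN, 68.4 to 489 in MGNP, 99.98 to 331 in TN and 73.2 to 179 in TNP. The groups overlapped in all 8 pairwise comparisons.

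*Slc43a1* (chr2:84838850-84863594) ran opposite to *Slc7a5*. It had 105, 127 and 82.2 normalized counts in MGWT, 1340, 1261, 1291 and 1561 in MGN, and 1003, 1091, 1109 and 1437 in MGNP. The glands of tumor-bearing mice exceeded the wild-type glands by 3.70 (SE 0.17, limma adjusted p = 2.41e-06) and 3.46 (SE 0.21, adjusted p = 7.48e-05) on the log2 scale. The tumors had 18.2, 7.375, 64.6 and 7.003 in TN and 14.6, 28.1, 35.1 and 22.5 in TNP, below every gland of any group. From MGN to TN the difference was −6.32 (SE 0.62) and from MGNP to TNP −5.53 (SE 0.28). The summed white adipocyte markers were also highest in MGN and MGNP. Their shares in TN (0.00173% to 0.0344%) overlapped with those in MGWT (0.00920% to 0.0143%). The shares in TNP (0.00523% to 0.00911%) lay below those in MGWT. The part of these markers in the *Slc43a1* values was not tested.

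*Slc1a5* (chr7:16781340-16798274) showed the same order with far more reads. It had 2326, 1796 and 2437 normalized counts in MGWT, 13536, 24455, 25907 and 22200 in MGN, and 9617, 13923, 14100 and 14425 in MGNP. Among the tumors it had 399.9, 355, 729 and 498 in TN and 383, 473, 457 and 337 in TNP. The 3 ranges, of glands from tumor-bearing mice, of wild-type glands and of tumors, were fully separate. *Slc1a5* rose by 3.27 in MGN (SE 0.23, limma adjusted p = 1.84e-05) and by 2.57 in MGNP (SE 0.19, adjusted p = 1.57e-04) relative to MGWT. The tumor-gland differences were −5.45 (SE 0.28) for TN and −4.97 (SE 0.18) for TNP. The gene supplied 52.99% to 73.1% of the summed counts of the 10 members in MGN and 44.7% to 55.6% in MGNP, but 7.39% to 9.50% in MGWT and at most 3.01% in a tumor. As for *Slc43a1*, the part of adipocyte content was not tested.

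*Slc1a4* (chr11:20302180-20332713) had 613, 678 and 722 normalized counts in MGWT, 379.6, 489, 288 and 252 in MGN, and 350, 474, 324 and 269.9 in MGNP. All 8 glands of tumor-bearing mice were below the wild-type glands, but the differences of −0.97 (SE 0.23, limma adjusted p = 0.00654) and −0.95 (SE 0.21, adjusted p = 0.00943) fell short of 2-fold. The tumors had 998, 737, 868 and 323 in TN and 912, 910, 768 and 939 in TNP. TN replicate 4 was within the MGN range, and the 4 TNP tumors were above all MGNP glands, by 1.34 on the log2 scale (SE 0.19).

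*Slc38a1* (chr15:96571418-96642913) was the member whose TN and TNP values did not overlap, as was so for 4.21% of all genes, and the difference was not called (limma adjusted p = 0.428). It had 2034, 715 and 852 normalized counts in TN replicates 1 to 3 and 689.7 in replicate 4, and 3537, 2345, 5331 and 3665 in TNP. All 4 TNP tumors were above all 4 TN tumors. In glands it had 1558, 1597 and 1852 in MGWT, 521, 421, 495 and 1072 in MGN, and 1537, 498, 1662 and 355 in MGNP. It fell by 1.51 in MGN relative to MGWT (SE 0.30, limma adjusted p = 0.00278), and the MGNP difference of −1.02 (SE 0.56, adjusted p = 0.169) did not pass. *Slc38a2* (chr15:96687392-96699730), its neighbor on the chromosome, was more even. It had 12211, 11634 and 12043 in MGWT, 5386, 4078, 4027 and 4148 in MGN, and 4486, 7387, 4222 and 5710.0 in MGNP. It fell in both, with log2 differences of −1.45 (SE 0.13, limma adjusted p = 4.95e-05) and −1.17 (SE 0.20, adjusted p = 0.00366). The tumors had 5769, 7772, 7186 and 9048 in TN and 8501, 9016, 6957 and 5561 in TNP. All tumors were below the wild-type glands, and some lay within the MGNP range and others above it.

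Glands of tumor-bearing mice were compared with wild-type glands over all genes, with genes called at an adjusted p under 0.05 and at least a 2-fold change. In MGN, *Slc1a5* and *Slc43a1* rose and *Slc7a5*, *Slc3a2*, *Slc38a1* and *Slc38a2* fell, and 6 of the 10 members were called where 37.0% of all tested genes were. In MGNP the same pair rose and *Slc3a2* and *Slc38a2* fell, so 4 of 10 were called against 32.6% of all genes. Groups did not overlap for 7 members in each comparison, against 61.3% and 54.4% of all genes. The median log2 change of the members was −0.55 in MGN and −0.77 in MGNP, where that of all tested genes was 0.02 in both. Both comparisons used the same 3 MGWT libraries. The shares of adipocyte and luminal markers given above differed between these groups without overlap, and what part of the members' changes follows them was not tested.

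**Figure D2:**
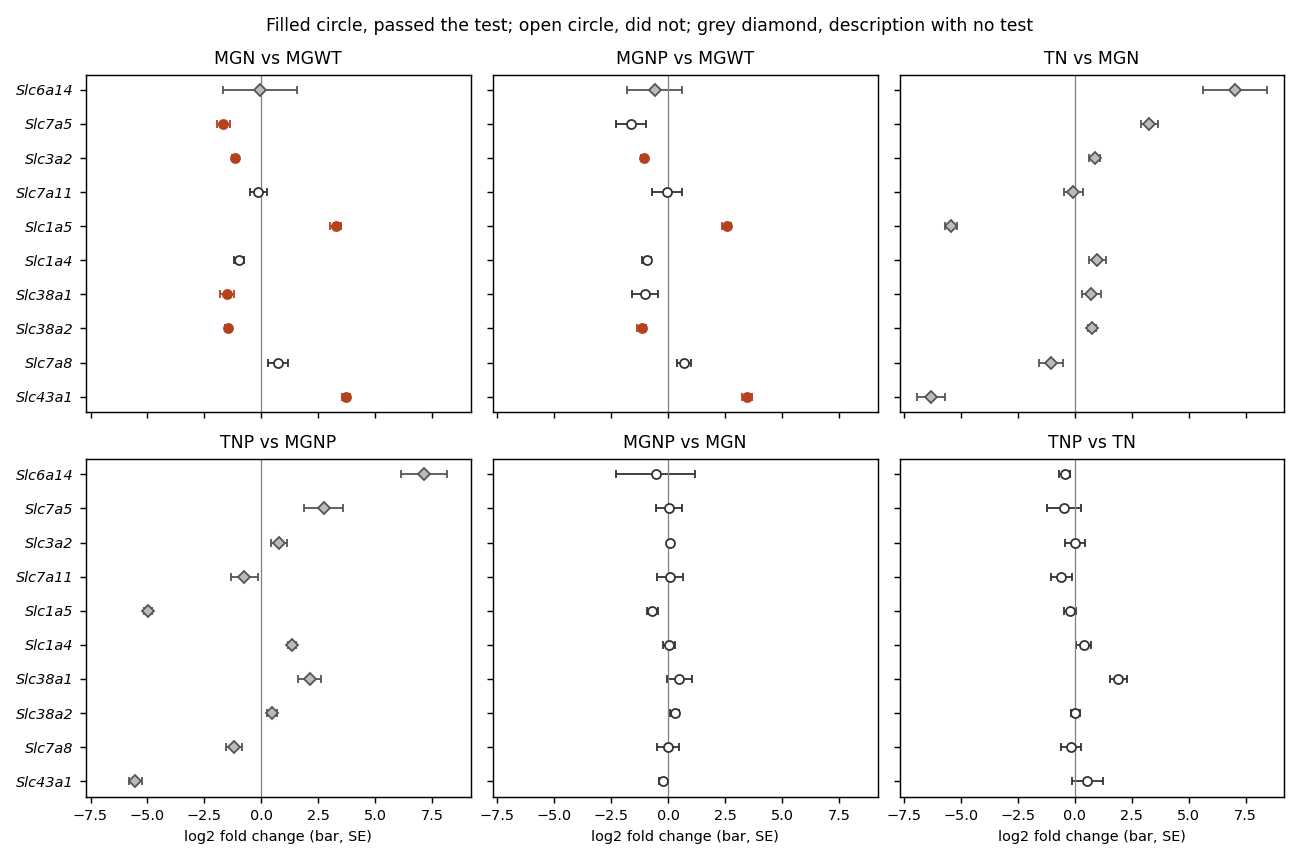
Log2 fold changes of the 10 members (horizontal axes) with their SE in 6 comparisons. Filled circles passed the limma test at 2-fold, open circles did not, and grey diamonds are given with no test. *Slc1a5* and *Slc43a1* were higher in glands of tumor-bearing mice than in MGWT and lower in tumors than in those glands, and *Slc6a14* and *Slc7a5* were higher in tumors.

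Between tumors and glands of tumor-bearing mice the members moved in both directions. From MGN to TN, *Slc6a14* (7.01) and *Slc7a5* (3.27) were higher and *Slc1a5* (−5.45) and *Slc43a1* (−6.32) lower, all past the threshold, which 35.1% of all genes passed. Their groups did not overlap, nor did those of *Slc3a2* (0.86) and *Slc38a2* (0.75), so 6 members were separate, against 49.2% of all genes. From MGNP to TNP 7 members were past the threshold, against 38.7% of all genes, and 6 did not overlap, against 52.6%. Those higher were *Slc6a14* (7.13), *Slc7a5* (2.73), *Slc38a1* (2.12) and *Slc1a4* (1.34), and those lower were *Slc7a8* (−1.20), *Slc1a5* (−4.97) and *Slc43a1* (−5.53). Leaving out each library gave 5 to 8 members past the threshold in TNP. *Slc7a5* was not among them without MGNP replicate 2 or 4, without TNP replicate 1 or 2, or with those 2 tumors averaged, nor was *Slc7a8* without MGNP replicate 4 or TNP replicate 2, and without TNP replicate 3 *Slc3a2* joined them. In TN *Slc1a4* joined with TMM scaling, edgeR and DESeq2, without MGN replicate 2 and without TN replicate 4. The *Slc6a14* values in these contrasts supplied the reason for choosing the set, and nothing is read from the numbers of members past the threshold.

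Tumors were also set against the wild-type glands, whose luminal marker shares were nearer to theirs than those of the other glands. The basal epithelium markers differed, at 0.220% to 0.260% in MGWT, 0.00496% to 0.0184% in TN and 0.00719% to 0.0127% in TNP, with 8 of 8 lower in both. Of the T cell, B cell and endothelium markers, 5 of 6, 5 of 5 and 5 of 6 were lower in TN, and 5 of 6, 5 of 5 and 6 of 6 in TNP. Other markers were higher. Of the macrophage markers 2 of 6 rose in TN and 4 of 6 in TNP, and of the skeletal muscle markers tested 4 of 10 and 8 of 12. Of the milk protein genes tested, 3 of 6 and 7 of 8 rose, and 1 fell in each. Of 9 white adipocyte markers, 0 were called in TN, and 4 rose and 3 fell in TNP. The part of these cell contents in the differences below was not tested. This comparison was not made by the study and uses the tumor libraries of the contrasts above. *Slc1a5* fell in both, with log2 differences of −2.18 in TN (SE 0.26, limma adjusted p = 4.11e-04) and −2.40 in TNP (SE 0.17, adjusted p = 7.78e-06). *Slc43a1* also fell, with −2.61 (SE 0.73, limma adjusted p = 0.0169) and −2.07 (SE 0.35, adjusted p = 7.8e-04). These transporters were thus lower in tumors than in either kind of gland. *Slc7a5* rose by 1.60 in TN (SE 0.45, adjusted p = 0.0170), and in TNP the difference was 1.11 (SE 0.77, adjusted p = 0.226). *Slc38a1* rose by 1.10 in TNP (SE 0.24, adjusted p = 0.00334) but not detectably in TN, where the difference was −0.79 (SE 0.37, adjusted p = 0.100). Counting *Slc6a14*, 4 members were past the threshold in each comparison, against 42.5% of all genes for TN and 47.8% for TNP, and 4 and 7 did not overlap, against 60.7% and 69.9%. The call of *Slc7a5* in TN was lost without MGWT replicate 2 or 3, that of *Slc43a1* in TN without MGWT replicate 1 or 2, and that of *Slc38a1* in TNP without TNP replicate 3.

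The effect of mutant p53 in fibroblasts was asked by comparing MGNP with MGN and TNP with TN. In glands limma called none of the 10 members, nor any other gene (0%), so the absence of calls is not particular to the members. DESeq2 called 401 genes higher and 113 lower, and no member among them. The study, which used DESeq2, also reported differentially expressed genes between these glands. The log2 differences of the members ranged from −0.70 (*Slc1a5*) to 0.49 (*Slc38a1*). *Slc1a5* was the member at an unadjusted p under 0.05 (SE 0.24, 95% interval −1.26 to −0.14, limma adjusted p = 0.371), and the groups of all 10 overlapped where 6.21% of all genes did not. The gland groups also differed in content, with white adipocyte marker shares of 1.40% to 1.83% in MGN and 0.602% to 1.33% in MGNP. The 12 skeletal muscle markers had a median log2 difference of 6.17, with 0 called. What part adipocyte and muscle content had in the gland differences was not tested. In tumors 0 of 10 were called, against 0.0421% of all genes, or 7 genes. *Slc38a1* was 1.89 higher in TNP (SE 0.37, 95% interval 1.05 to 2.74, adjusted p = 0.428) and was the member whose groups did not overlap, against 4.21% of all genes, and the member with an unadjusted p under 0.05. Its adjusted p ranged from 0.00759 to 0.934 over the alternatives, and it was called by DESeq2 (log2 difference 1.79) and by limma without TN replicate 1 (2.25). The tumor-gland difference of *Slc38a1* was 1.40 larger in NP than in N (SE 0.70, adjusted p = 0.653), and for no member did this test reach an adjusted p under 0.05. The other 9 members had intervals in the tumor comparison that reached across 0. Those of *Slc7a5* (−2.20 to 1.22), *Slc7a11* (−1.61 to 0.42), *Slc1a4* (−0.35 to 1.12), *Slc7a8* (−1.13 to 0.81) and *Slc43a1* (−0.98 to 2.08) reached past 2-fold, and those of *Slc6a14* and *Slc3a2* (−0.96 to 0.97) came close to it.

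Levels were compared between members as normalized counts per kb of exon. In MGN and MGNP *Slc1a5* led, at a mean of 5158 (SD 1328) and 3119 (SD 545), and did not overlap with *Slc3a2*, which came next at 838 (SD 93.5) and 892 (SD 49.3). In MGWT *Slc3a2* led at 1893 (SD 225), above *Slc38a2* at 1354 (SD 33.6) and *Slc1a5* at 524 (SD 82.1), with no overlap between these. In tumors the order was *Slc3a2*, *Slc7a5*, *Slc38a2* and *Slc6a14*, at 1597 (SD 613), 968 (SD 496), 842 (SD 154) and 454 (SD 67.6) in TN. *Slc7a5* overlapped with each of the other 3, which did not overlap with one another. In TNP the same 4 genes had 1703 (SD 814), 924 (SD 820), 849.6 (SD 177) and 346 (SD 105). *Slc6a14* was the lowest member in MGWT, at 3.80 (SD 2.24), and in MGNP, at 4.74 (SD 6.08). The last place in tumors was taken by *Slc43a1*, at 4.25 (SD 4.79) in TN and 4.38 (SD 1.52) in TNP.

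**Figure D3:**
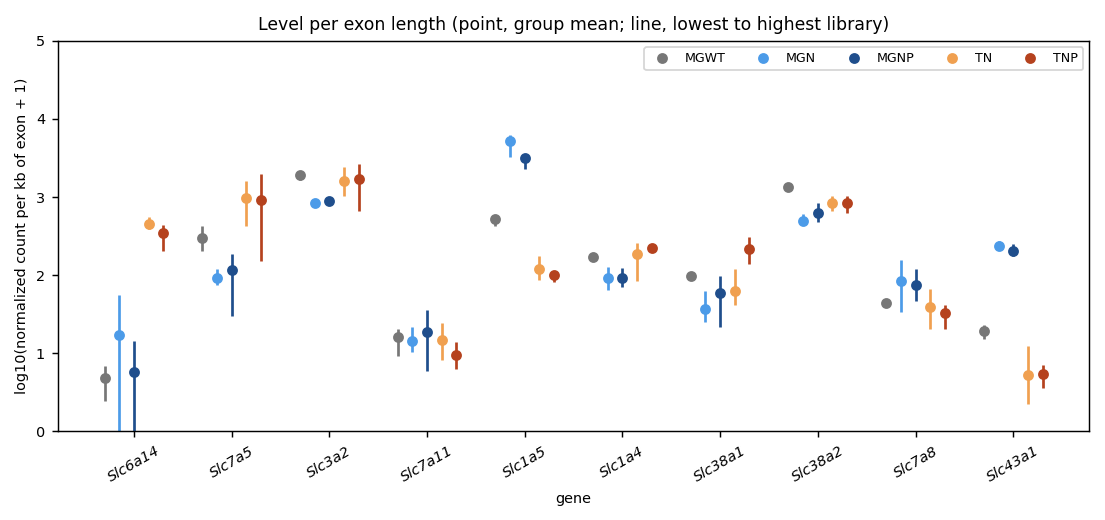
Log10(normalized count per kb of exon + 1) of each member (vertical axis) by group, with points for group means and lines from the lowest to the highest library. By group mean, *Slc1a5* leads in MGN and MGNP and *Slc3a2* in MGWT, TN and TNP. *Slc6a14* is low in glands. In TN and TNP its mean stands below those of *Slc3a2*, *Slc7a5* and *Slc38a2*, and its range overlaps with that of *Slc7a5*.

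A further 42 amino acid transporters were listed, of which 26 to 32 passed the filter in each comparison. In MGN, of 32 tested, 7 were called higher and 8 lower than in MGWT, where 37.0% of all genes were called. *Slc7a10*, an exchanger of small neutral amino acids, rose by 9.50 (SE 0.44, limma adjusted p = 2.27e-06) from 4.59 ± 3.06 normalized counts (SD, n = 3) to 3643 ± 1010 (SD, n = 4). *Slc36a2*, a proton-coupled carrier, rose by 5.68 (SE 0.24) and *Slc1a3*, a glutamate carrier, by 4.86 (SE 0.18). *Slc7a2*, a carrier of cationic amino acids, fell by 2.56 (SE 0.22, adjusted p = 4.24e-05), and *Slc6a15* (−1.87, SE 0.39) and *Slc6a17* (−1.79, SE 0.44) also fell. In MGNP, of 31 tested, 5 rose and 6 fell (32.6% of all genes called), led by *Slc7a10* (8.79), *Slc36a2* (5.12) and *Slc1a3* (4.48) among the rises, and by *Slc7a2* (−2.18), *Slc7a1* (−1.59) and *Slc6a15* (−1.52) among the falls. The median log2 change of the list was −0.00235 in MGN and −0.08 in MGNP. The 3 largest rises were in the same genes in both comparisons, which share the MGWT libraries. All 9 white adipocyte markers were also called higher in both, with medians of 10.3 and 9.40, and their part in these rises was not tested.

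The same 3 genes had the largest falls from glands to tumors. The log2 differences of *Slc7a10* were −8.61 in TN (SE 0.96, limma adjusted p = 2.41e-04) and −8.24 in TNP (SE 0.38, adjusted p = 4.72e-06). Those of *Slc1a3* were −7.14 (SE 0.84) and −6.82 (SE 0.35), and those of *Slc36a2* −6.38 (SE 0.97) and −6.82 (SE 0.58). All 9 white adipocyte markers were called lower in both as well, with medians of −8.50 and −7.45, and their part in these falls was not tested. Of 31 tested in each, 14 fell and 3 rose in TN (35.1% of all genes called), and 12 fell and 3 rose in TNP (38.7%), with a median of −0.81 and −0.51 where all genes had −0.05 and −0.07. The genes that rose were the same in both. *Slc7a4* rose by 2.13 (SE 0.26) and 2.35 (SE 0.30), *Slc1a1*, a glutamate and cysteine carrier, by 1.97 (SE 0.71) and 1.52 (SE 0.31), and *Slc7a7*, a light chain that pairs with Slc3a2, by 1.13 (SE 0.23) and 1.42 (SE 0.32). For *Slc1a1* the TN tumors, at 158 to 2044 normalized counts, overlapped with the MGN glands, at 164 to 269. Against MGWT, 1 rose and 8 fell of 27 tested in TN (42.5% of all genes called) and 4 rose and 9 fell of 28 in TNP (47.8%), with medians of −0.68 and −0.21. *Slc7a2* fell to 72.4 to 333 normalized counts in TN from 9411 to 12966 in MGWT, with log2 differences of −6.12 (SE 0.47) in TN and −4.60 (SE 0.55) in TNP. *Slc38a4* (−4.43, SE 1.05, and −4.21, SE 0.35) fell in both. The 3 largest falls also held *Slc38a11* (−4.25, SE 0.71) in TN and *Slc7a6* (−2.88, SE 0.35) in TNP. Both genes were below MGWT in the other tumor group as well. *Slc38a11* had 1.25 to 10.1 normalized counts in TNP and 24.3 to 49.8 in MGWT. *Slc7a6* had 64.3 to 222 in TN and 1008 to 1109 in MGWT. *Slc7a7* rose by 1.33 (SE 0.17) in TN and 1.21 (SE 0.12) in TNP. In TNP *Slc38a3*, a glutamine carrier, rose by 3.11 (SE 0.32) and *Slc6a18* by 1.37 (SE 0.49). *Slc6a18* had few reads, at most 12 in a TNP library and 16 in the deeper MGWT libraries. Its groups overlapped, at 6.73 to 14.6 and 1.55 to 7.81 normalized counts. None of the listed transporters was called between MGNP and MGN or between TNP and TN, nor in the test of whether the tumor-gland difference depends on p53.

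**Figure D4:**
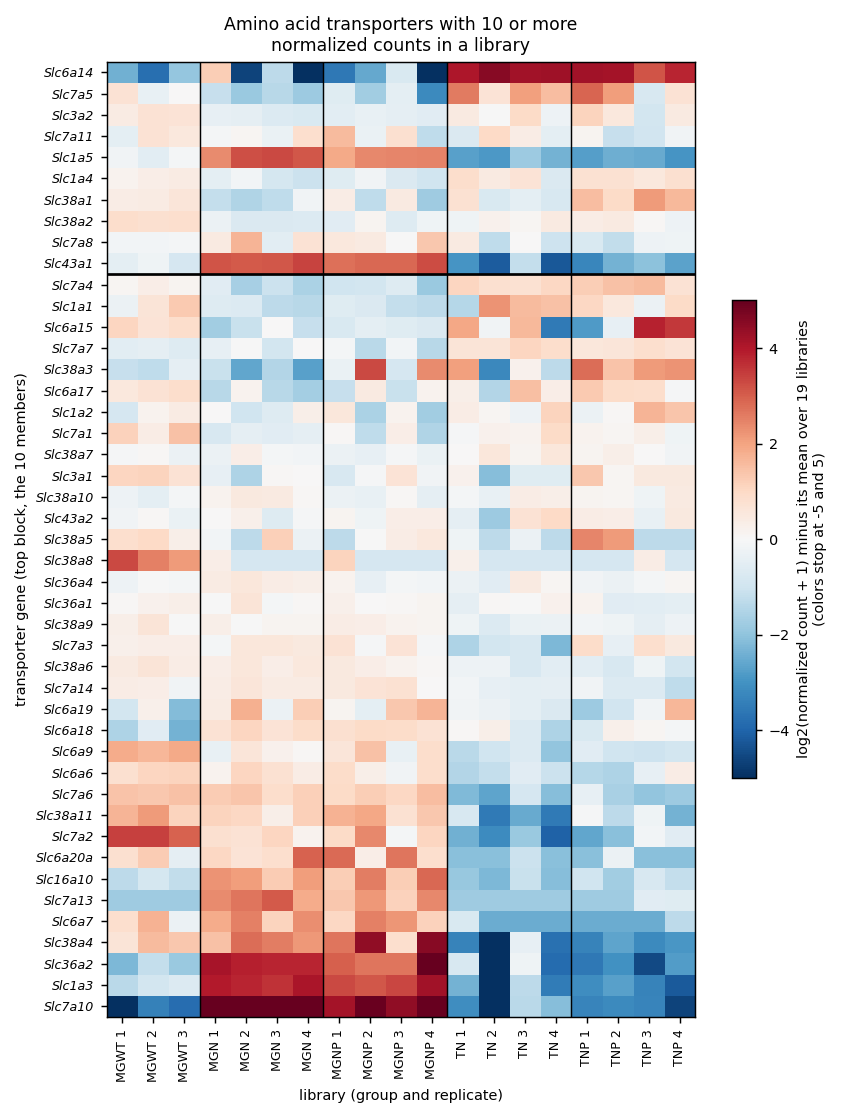
Log2(normalized count + 1) minus the gene's mean over 19 libraries (color) for the 45 transporters, of 52, with at least 10 normalized counts in a library (rows), by library (columns). The 10 members are above the thick line, and the other 35 are ordered by the mean difference between tumors and the glands of tumor-bearing mice, from higher in tumors (top) to lower (bottom).

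Genes of the amino acid response were read beside the carriers and against the same shares of all genes. Of 14 listed, *Atf4* itself fell in glands of tumor-bearing mice, with log2 differences of −1.52 in MGN (SE 0.14, limma adjusted p = 5.7e-05) and −1.03 in MGNP (SE 0.24, adjusted p = 0.0117), from 7031 ± 1395 normalized counts in MGWT (SD, n = 3) to 2417 ± 135 and 3491 ± 962 (SD, n = 4). *Asns*, the asparagine synthetase, rose by 1.87 (SE 0.32, adjusted p = 0.00143) and 1.67 (SE 0.30, adjusted p = 0.00381). In all 5 rose and 1 fell in MGN, with *Eif4ebp1* (2.73), an inhibitor of translation initiation, and *Phgdh* (2.21), of serine synthesis, the largest rises, and 6 rose and 1 fell in MGNP, led by *Chac1* (3.60), a glutathione-degrading enzyme, and *Eif4ebp1* (2.53). The medians were 0.64 and 0.52. In tumors *Trib3*, a pseudokinase of this response, rose by 3.51 (SE 0.32, adjusted p = 1.2e-04) over MGN and 3.58 (SE 0.29, adjusted p = 3.51e-05) over MGNP, from 128 ± 42.1 and 119 ± 45.3 normalized counts to 1499.6 ± 503 and 1358 ± 216 (SD, n = 4 each). It was the gene that rose in TN, where *Eif4ebp1* fell (−1.33), and in TNP *Nupr1* (1.27) rose and *Chac1* (−2.51) fell, with list medians of 0.12 and −0.07. *Asns* differed by −0.06 (SE 0.37, adjusted p = 0.902) and 0.12 (SE 0.23, adjusted p = 0.685) between tumors and these glands, and *Atf4* by 0.81 (SE 0.15, adjusted p = 0.00223, under 2-fold) and 0.24 (SE 0.24, adjusted p = 0.419). Against MGWT 7 rose and 1 fell in TN and 6 rose in TNP, with *Trib3* (3.36 and 3.28), *Psat1* (2.11 and 1.80) and *Asns* (1.81 and 1.79) higher in both, *Sesn2* (−1.38) lower in TN, and *Atf4* (−0.71 and −0.79) short of 2-fold. No gene of the list was called between MGNP and MGN or between TNP and TN, where *Asns* differed by −0.19 and −0.02 and *Atf4* by 0.49 and −0.09. The members with an ATF4 match in their window, *Slc7a11* and *Slc1a4*, were not called against MGWT or between NP and N, and *Slc1a4* was past the threshold between TNP and MGNP, which is given with no test. The rise of *Chac1* was uneven, at 81.2 to 752 normalized counts over the MGNP glands. What part muscle, adipocyte and epithelial content had in the changes of this list was not tested.

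Enzymes of amino acid metabolism were counted in the same way, with the shares of all genes as above. Of 12 glutamine and glutathione enzymes, 2 rose and 5 fell in MGN and 2 rose and 4 fell in MGNP relative to MGWT. The largest falls included *Gclc* (−1.48) in MGN and *Gclm* (−1.53) in MGNP, both of glutathione synthesis. Both genes were below MGWT in both groups. *Gclc* had 1990 to 4325 normalized counts in MGWT, 1058 to 1116 in MGN and 1010 to 1447 in MGNP. *Gclm* had 1769 to 2676 in MGWT, 643 to 987 in MGN and 611 to 1056 in MGNP. The alanine transaminases *Gpt* (2.97 and 2.25) and *Gpt2* (2.70 and 2.56) rose. *Glul*, the glutamine synthetase, was at 27650 ± 4918 normalized counts in MGN and 31211 ± 12811 in MGNP (SD, n = 4 each), and differed from MGWT by 0.28 (adjusted p = 0.395) and 0.38 (adjusted p = 0.453). In tumors *Glul* fell to 1581 ± 810.4 in TN and 3928 ± 2228 in TNP (SD, n = 4 each), with log2 differences of −4.27 (SE 0.37, limma adjusted p = 9.36e-05) and −3.08 (SE 0.46, adjusted p = 6.72e-04) from their glands, and *Gpt* fell too, with −3.12 (SE 0.39) and −2.06 (SE 0.43). The aspartate transaminases *Got2* (1.92) and *Got1* (1.39) rose in TN, and *Gss* (1.07) rose in TNP, with 2 higher and 4 lower in TN and 1 higher and 3 lower in TNP. Against MGWT 1 rose and 4 fell in TN and 2 rose and 3 fell in TNP. *Glul* (−3.99 and −2.71) was lower and *Gpt2* (1.54 and 1.84) higher in both, and *Gss* (1.21) was higher in TNP. *Gclc* (−2.102) was among the largest falls in TN, and its 651 to 842 normalized counts in TNP were also below MGWT. Of 8 listed branched-chain amino acid enzymes, 5 rose in MGN and 6 in MGNP and none fell, with *Bckdhb* (2.68 and 2.47) and *Bcat2* (2.15 and 2.26) the largest rises. In tumors 3 fell relative to each gland group, *Bcat1* (−2.04) and *Bckdhb* (−1.69) in TN and *Bcat1* (−1.58) and *Bcat2* (−1.50) in TNP showing the largest falls. Against MGWT *Bckdha* (2.098 and 2.26) and *Bckdk* (1.72 and 1.97) rose in both tumor groups, where 3 rose in TN and 4 rose and 1 fell, *Bcat1* (−2.13), in TNP. No enzyme of either list was called between MGNP and MGN or between TNP and TN, where *Glul* differed by 0.10 and 1.28. Of the 12 skeletal muscle markers, 10 were called higher in MGN and 12 in MGNP than in MGWT, with medians of 5.02 and 11.3. What part muscle, adipocyte and epithelial content had in the enzyme changes was not tested.

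Genes with a pattern like that of *Slc6a14* were found by the root mean square difference between centred log2 profiles over the 19 libraries, among 20055 genes. The nearest were *Col11a1* (0.891), a fibrillar collagen chain, *C130071C03Rik* (1.17), *Col9a1* (1.22), a cartilage collagen chain, *Aldoc* (1.38), an aldolase, and *Csn3* (1.39), the kappa casein, where the size of the *Slc6a14* profile itself was 3.84. *Col11a1* had 20697 to 45386 normalized counts in tumors and 69.7 to 2365 in glands. The nearest member was *Slc7a5*, at 2.70, with 422 genes nearer, and *Slc1a5* (6.003) and *Slc43a1* (6.33) were the farthest members. Since these points share libraries and depth, the values describe likeness and carry no test.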

How the data were processed

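RNA-seq of 19 mouse samples was used. Per the labels, RNA was purified with Qiagen reagents and prepared with a stranded total RNA kit, whereas the paper's methods name an mRNA kit. Read pairs were aligned by the authors to GRCm38 with TopHat2 (version 2.1.1 in the submitters' processing notes) and Bowtie2. The counting tool, its annotation and its use of strand are not given in the sources used here. The deposited signal consists of normalized counts, in which the authors divided the reads of each gene by 1 size factor per library, as DESeq2 does. Each library's values were whole multiples of a step, and 100% of them came out as whole reads (tolerance 0.05). Size factors were 1.94 to 2.34 in MGWT and 0.70 to 1.06 elsewhere.

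Of the identifiers, 98.16% matched GENCODE vM21 and 849 did not. It gave GRCm38 positions and exon lengths, and no member shared exon bases with another gene. Samples were grouped by their labels. For each pair of groups, log2(normalized count + 1) went into limma (version 3.58.1, trended empirical Bayes), keeping genes that reached 10 normalized counts in a number of libraries no lower than the size of the smaller group. Adjustment followed Benjamini-Hochberg over every gene kept, and unless another tool is named all adjusted p-values are of this kind. A call needed an adjusted p under 0.05 and 2-fold. All 10 members were kept in every comparison. The procedure was tested on simulated data.

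Recomputed alternatives comprised other pseudocounts (0.5 and 5), filtering off or at a mean of 50, TMM scaling, the recovered reads in edgeR (version 4.0.16) or DESeq2 (version 1.42.0), 1 fit of all 5 groups, a replicate block, no fold threshold, TNP replicates 1 and 2 averaged, and omission of each library.

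The members, lists, tests and alternatives were chosen with earlier results of these data known. Named were all members, up to 3 called transporters each way with the largest change, up to 2 response genes or enzymes each way plus *Atf4*, *Asns* and *Glul*, the 5 genes nearest to *Slc6a14* in profile, and *Erbb2*. The values of 1 listed enzyme are not reported here. Protein sequences were not used here.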

Additional observations from a re-analysis of the deposited data

Results flagged for a closer look

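In each group of 4 libraries, a member was examined for a library far from the others, by Dixon's ratio of the gap to the whole range. Among 40 groups tested, 3 had such a library, and chance alone gives about 1 in 20. *Slc1a5* in MGNP replicate 1, at 9616.9 normalized counts, was far below the other MGNP glands. *Slc1a4* in TNP replicate 3, at 767.63 normalized counts, was below the other TNP tumors. *Slc38a2* in MGN replicate 1, at 5386.5 normalized counts, was above the other MGN glands, whose genotype also differed from that of replicate 1.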

How the results depend on the processing

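Of 170 recomputed counts of called members, 167 stayed within 1.5 times the reported value. In TNP against TN, DESeq2 called 1 member, *Slc38a1*, where limma called 0, and leaving out each library gave 0 to 1, the call arising without TN replicate 1. In TN against MGWT, leaving out each library gave 2 to 5, the lowest without MGWT replicate 2. Of 1259 recomputed member differences with a test, 1169 kept direction and side of the threshold, 19 newly passed it, 9 no longer passed it and 62 changed sign, each of these smaller than its SE where the tool gave one. Of 437 given with no test, 404 kept both, 9 newly passed, 7 no longer passed and 17 changed sign. The causes were not tested.

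The sign changes outside single omitted libraries were as follows. *Slc6a14* against MGWT was 0.43 with a pseudocount of 5, 2.06 with edgeR, 2.09 with DESeq2 (SE 1.82) and 1.15 with the replicate block (SE 0.86) in MGN, and 0.35, 0.33 and 0.41 with the last 3 in MGNP. *Slc7a11* in TN against MGN was 0.0153 with edgeR and 0.0261 with DESeq2. *Slc7a11* in MGNP against MGWT was 0.24 with edgeR, 0.23 with DESeq2 and 0.43 with the replicate block. *Slc1a4* in MGNP against MGN was −0.0107 with TMM scaling. With TNP replicates 1 and 2 averaged, *Slc3a2* and *Slc38a2* in TNP against TN were −0.16 and −0.0759, and the dependence of the *Slc6a14* tumor-gland difference on p53 was −0.0064. That of *Slc3a2* was 0.0275 with edgeR and 0.0042 with DESeq2.

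Leaving out each library gave ranges that crossed 0. *Slc6a14* ran from −1.37 to 1.15 in MGN and −1.44 to 0.41 in MGNP against MGWT, and *Slc7a11* from −0.39 to 0.18 in TN against MGN. *Slc7a11* ran from −0.51 to 0.11 in MGN against MGWT, −0.51 to 0.43 in MGNP against MGWT and −0.58 to 0.0464 in TN against MGWT. In MGNP against MGN the ranges were −1.75 to 0.77 for *Slc6a14*, −0.29 to 0.60 for *Slc7a5*, −0.38 to 0.56 for *Slc7a11*, −0.12 to 0.20 for *Slc1a4* and −0.39 to 0.36 for *Slc7a8*. In TNP against TN they were −1.05 to 0.19 for *Slc7a5*, −0.26 to 0.41 for *Slc3a2*, −0.11 to 0.14 for *Slc38a2* and −0.43 to 0.14 for *Slc7a8*. *Slc1a4* ran from −0.18 to 0.36 in TN against MGWT and *Slc3a2* from −0.57 to 0.0940 in TNP against MGWT. For the dependence of the tumor-gland difference on p53 they were −1.22 to 1.31 for *Slc6a14*, −1.10 to 0.14 for *Slc7a5*, −0.35 to 0.31 for *Slc3a2* and −0.52 to 0.22 for *Slc7a8*.

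The deviations of same-numbered libraries from their group means had correlations of −0.28 to 0.32. These were not set against those of other pairs, and whether such libraries share more than a number was not tested. With the replicate number as a block, 6 and 5 members were called in MGN and MGNP against MGWT, and *Slc43a1* was not called in TN against MGWT. With all 5 groups in a single fit, *Slc7a5* was not called in MGN or TN against MGWT, nor *Slc38a1* in TNP against MGWT. Over all genes, MGNP against MGN gave 0 calls with limma and edgeR (1950 and 2085 at an unadjusted p under 0.05), 401 higher and 113 lower with DESeq2, 12 and 4 with all groups in a single fit, and 297 and 21 without MGNP replicate 3. TNP against TN gave 7 with limma, 0 with edgeR (1204 at an unadjusted p under 0.05), with a pseudocount of 0.5, with a filter at a mean of 50, with the block and with TNP replicates 1 and 2 averaged, 51 and 34 with DESeq2, 22 and 4 in the single fit, 34 and 18 without TN replicate 1, and 0 without any other single library. The test of dependence on p53 gave 0 with limma and edgeR (1536 and 1805 at an unadjusted p under 0.05), 50 and 269 with DESeq2, 194 in both directions without MGNP replicate 3, 14 and 6 without TN replicate 1 and 2 and 0 without MGNP replicate 4. With no fold threshold, MGN against MGWT gave 5697 and 5544. TMM scaling moved the median of all genes by 0.10 in TNP against MGNP. Depth limits *Slc6a14* in glands, where several libraries held few or no reads.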
